A study of Mus musculus with 2 samples.

Results

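The mouse microRNA miR-21a was followed through its 2 mature arms, miR-21a-5p and miR-21a-3p, which are cut from opposite strands of 1 hairpin, Mir21a. They were chosen by name, as the rows that carry these names, and they are 2 of 1125 miRNAs listed in at least 1 library. The libraries are small RNA sequencing of helper T cells that started as naive CD4+CD62L+ cells from spleens of female C57BL/6 mice, with 1 column of reads for Th17 cells and 1 for Th0 cells. Th17 cells were grown for 6 to 7 days with 4 cytokines, namely 2 ng/ml of TGF-β, 10 ng/ml of IL-1β, and 40 ng/ml each of IL-6 and IL-23. They also received 1 µg/ml of anti-CD28 and 5 µg/ml of antibodies to each of IL-2, IL-12, IL-4 and IFN-γ. Th0 cells received no cytokine and, of the antibodies, 1 µg/ml of anti-CD28 and 5 µg/ml to each of IL-4 and IFN-γ. The medium of both contained 10% serum, and the labels name no genetic change in either group. How long Th0 cells were grown was not stated in the sources used, so culture time and the Th17 conditions cannot be told apart in any ratio.

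miRNAs are short RNAs that guide Argonaute proteins to messenger RNAs, mostly through pairing of the seed, bases 2 to 8 from the 5′ end. miR-21 is known as a miRNA that rises when T cells are activated. Its gene is a known target of STAT3, the transcription factor that carries the IL-6 signal, and among its best studied targets is Pdcd4, an inhibitor of translation. In mice miR-21 has been reported to promote Th17 differentiation by lowering Smad7, an inhibitor of TGF-β signalling. Which of the cytokines in the medium would act on it cannot be told apart in these cultures.

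The mature sequences, with the seed in capitals, show what is counted under each name. The first pair are the arms of Mir21a, and the other pair are the miRNAs with the nearest names.
miR-21a-5p: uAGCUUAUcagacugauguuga
miR-21a-3p: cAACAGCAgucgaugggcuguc
miR-21b: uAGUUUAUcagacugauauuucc
miR-21c: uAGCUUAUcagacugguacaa
The sequences are those of RefSeq on GRCm38.p6. Both arms of Mir21a have 22 bases. They differ in composition, with 8 G or C bases in miR-21a-5p and 13 in miR-21a-3p. miR-21b equals miR-21a-5p at 18 of 22 positions counted from the 5′ end and carries C4U in the seed, beside G18A, G21U and A22C. miR-21c keeps the seed of miR-21a-5p and equals it at 16 of 21 positions. It is the 1 other mature miRNA of the 1679 in the RefSeq table with that seed, and none shares the seed of miR-21a-3p.

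Neither relative contributed reads of any weight. miR-21b was listed with 0 reads in Th17 and 1 read in Th0. miR-21c was in neither library. A count of 0 allows up to 0.251 CPM (counts per 1000000 listed reads) in Th17 and 0.359 CPM in Th0. The sources used do not state what was done with reads that match several miRNAs.

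Mir21a lies on chromosome 11 of GRCm38 (mm10) from 86584067 to 86584158, minus strand. In GENCODE M21 the whole hairpin of 92 bases falls in exon 12, the last of 12 exons, of the transcript Vmp1-201, within its annotated 3′ untranslated region (86583865 to 86585310, same strand). Vmp1 encodes a membrane protein that acts in autophagy. The mature arms cover 86584120 to 86584141 for miR-21a-5p and 86584082 to 86584103 for miR-21a-3p. The other listed transcripts of Vmp1, 8 in all with Vmp1-201, do not overlap the hairpin with an exon.

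miR-21a-5p, the arm with the known regulatory roles, was the most abundant miRNA of both libraries and stood at almost the same share in each. It had 1801153 reads of 11975371 in Th17 and 1280015 of 8358010 in Th0. That is 150405 CPM in Th17 (95% exact binomial interval 150202 to 150607) and 153148 CPM in Th0 (152904 to 153393). The Th17 share was 0.27 percentage points below the Th0 share. The Th17 over Th0 ratio was 0.982 (95% exact interval 0.980 to 0.984), a log2 ratio of -0.026. The study's design speaks of triplicates, but 1 column of reads per group was available, called 1 library here. How the triplicates were combined is not stated. No spread between cultures can be had from 1 column per group, so neither this nor any later difference could be tested. Every interval covers counting error only.

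The sign of the miR-21a-5p ratio depended on how the libraries were scaled. It was -0.017 on the log2 scale with TMM factors, 0.052 with median-of-ratios factors and -0.16 with the total taken over all but the 10 most abundant miRNAs. The last setting moved the median of the 298 miRNAs that average 10 CPM or more by -0.13 on the log2 scale. Median-of-ratios factors moved that median by 0.08. Relative to the median of these 298 miRNAs, miR-21a-5p stood 0.05 higher and miR-21a-3p 0.04 lower on the log2 scale. A scaling shifts all miRNAs nearly alike, so these distances do not test it.

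The lead of miR-21a-5p over the next miRNA was wide in both libraries. In Th17 the second was miR-27b-3p with 106160 CPM, and miR-21a-5p had 1.42 times as many reads. In Th0 the second was miR-92a-3p with 97631 CPM, and miR-21a-5p had 1.57 times as many. miR-92a-3p can come from the Mir17 cluster, which drives lymphocyte proliferation. It is shared by the hairpins mir-92a-1 and mir-92a-2, which its reads do not tell apart. In Th17 miR-21a-5p had 3.07 times the reads of miR-92a-3p. The order below first place therefore differed between the libraries while the top did not. The 989 least abundant miRNAs of Th17 together held fewer reads than miR-21a-5p alone, and so did the 962 least abundant of Th0. Reads per miRNA also reflect how well each sequence is ligated and amplified, which was not tested, so levels of different miRNAs are set side by side as reads.

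**Figure D1:**
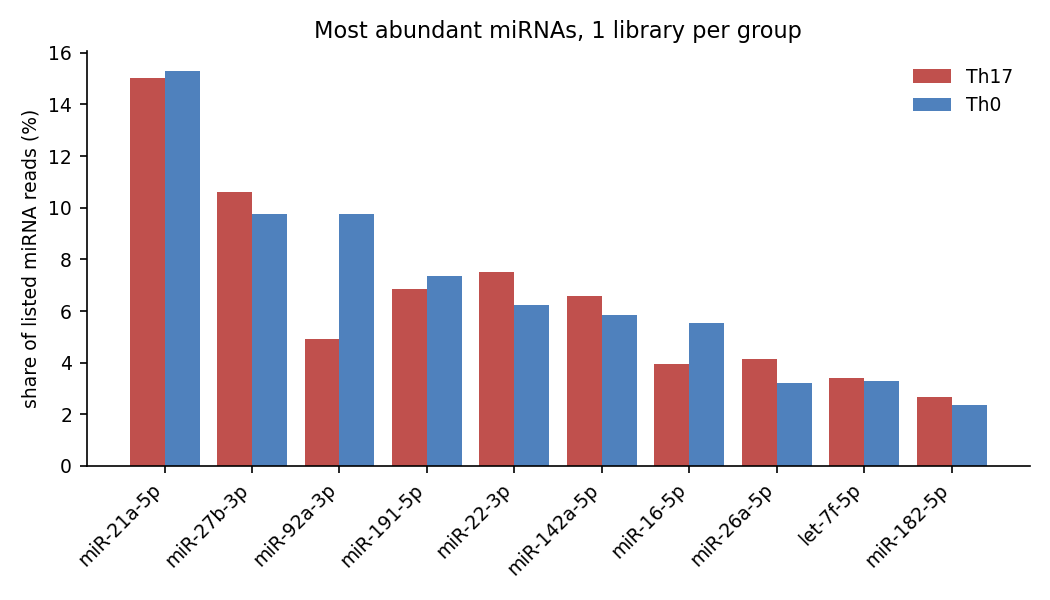
Share of listed reads (%) held by 10 of the most abundant miRNAs, ordered by the mean of both libraries, for Th17 (red) and Th0 (blue), 1 library each. miR-21a-5p is the tallest pair, and its bars differ by 0.27 percentage points.

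miR-21a-3p, the arm usually discarded from the duplex, was far rarer than its partner and still stood high in the list. There were 129.6 miR-21a-5p reads for each miR-21a-3p read in Th17 and 121 in Th0. It had 13895 reads in Th17 and 10559 reads in Th0, which is 1160 CPM in Th17 (1141 to 1180) and 1263 CPM in Th0 (1239 to 1288). It was 69th of 1012 miRNAs in Th17 and 63rd of 986 in Th0, above 93.2% of the listed miRNAs in Th17 and 93.6% in Th0. In Th17 its interval overlapped those of its neighbours in that order, miR-378c at 1164 CPM and miR-142a-3p at 1153 CPM. In Th0 its neighbours miR-148b-3p at 1328 CPM and miR-421-3p at 1184 CPM had intervals apart from its own. These neighbours were picked by position and named after their values were seen.

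**Figure D2:**
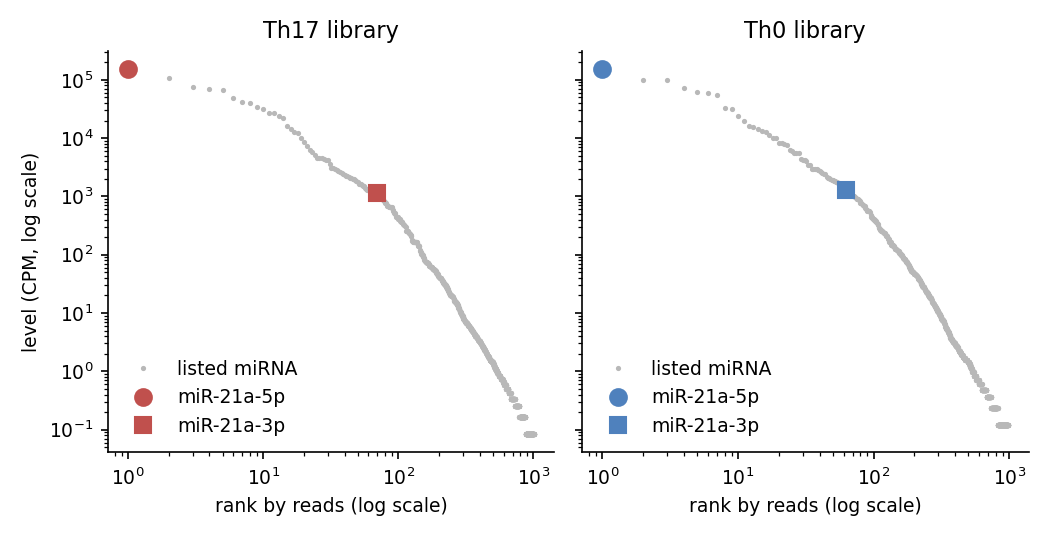
Level (CPM, log scale) against rank by reads (log scale) for each listed miRNA in Th17 (left) and Th0 (right). The circle marks miR-21a-5p at rank 1 in both panels, and the square marks miR-21a-3p at rank 69 in Th17 and 63 in Th0.

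Relative to the sum of listed reads miR-21a-3p was 1.09-fold lower in Th17 (interval 1.06 to 1.12), a log2 ratio of -0.12. It was below 0 under every scaling tried, from -0.25 without the 10 most abundant miRNAs in the total to -0.044 with median-of-ratios factors. Neither arm came near a 2-fold difference. Of the same 298 miRNAs, 59, or 19.8%, were at least 2-fold apart with an interval that excludes a ratio of 1. At 1.5-fold the share was 41.9%, and neither arm was among those.

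miR-21a-5p had the log2 ratio nearest to 0 of the abundant miRNAs when scaled to the sum of listed reads. Of the 72 with a mean of at least 1000 CPM, 0 had a smaller absolute log2 ratio, and the median absolute ratio over the 72 was 0.36. With median-of-ratios factors 7 were smaller, and without the 10 most abundant in the total 14 were smaller, so this place at the end of the order rests on the scaling. For miR-21a-3p 13 of the 72 were smaller. In all, 26.4% of the 72 lay within 0.2 of 0 on the log2 scale, both arms among them.

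**Figure D3:**
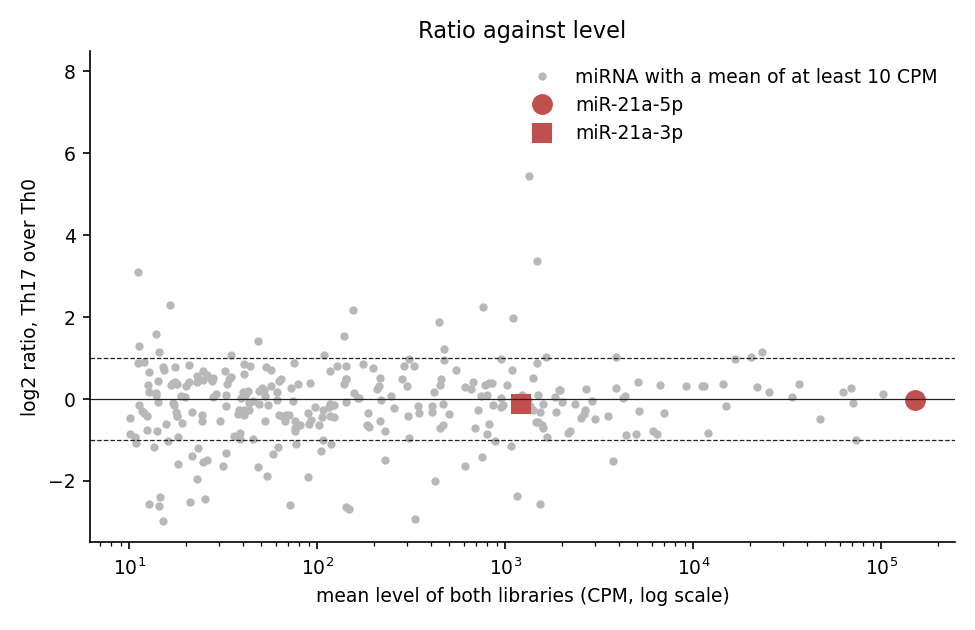
Log2 ratio of Th17 over Th0 against mean level (CPM, log scale) for the 298 miRNAs that average 10 CPM or more, scaled to the sum of listed reads. Dashed lines mark 2-fold. miR-21a-5p (circle) is at the far right at -0.026, and miR-21a-3p (square) is at -0.12.

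The miRNAs with the most similar ratios over these 2 libraries were listed for each arm. For miR-21a-5p, out of the miRNAs at 1000 CPM or more, they were miR-148b-3p (log2 ratio -0.033), miR-425-5p (-0.057), the hypoxia-induced miR-210-3p (-0.063) and let-7d-5p (0.034). Of these, miR-148b-3p, miR-425-5p and miR-210-3p also moved above 0 with median-of-ratios factors, and let-7d-5p moved below 0 without the 10 most abundant in the total. For miR-21a-3p, out of those at 100 CPM or more, they were miR-30b-5p (-0.12), the p53-induced miR-34a-5p (-0.12), let-7d-3p (-0.11) and miR-467d-5p (-0.11). Likeness here is the distance between single log2 ratios, at most 0.060 for the first group and 0.0093 for the second.

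The share of each arm within the hairpin does not depend on the scaling. Of the reads of Mir21a, 99.23% came from the 5p arm in Th17 (exact binomial interval 99.22 to 99.25%) and 99.18% in Th0 (99.17 to 99.20%). For every 1000 miR-21a-5p reads there were 7.71 miR-21a-3p reads in Th17 and 8.25 in Th0. The 3p to 5p ratio was thus 1.07-fold lower in Th17 (interval 1.04 to 1.10), or -0.097 on the log2 scale (-0.13 to -0.060). The share itself differed by 0.053 percentage points.

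Against the other hairpins this was a small difference in arm ratio. Of 167 hairpins with at least 100 reads in each library and both arms listed in each, 24 had a smaller absolute difference, and the median was 0.41 on the log2 scale. In 31 of them, or 18.6%, the arm ratio differed at least 2-fold. That count did not require an interval excluding 1, and some of these hairpins had few reads of 1 arm. For mir-467c there were 4 3p reads in Th17 and 1 in Th0. Of the 55 hairpins with at least 10000 reads in each library, 10 had a smaller absolute difference than Mir21a. Their median absolute difference was 0.33. Mir21a was first of all hairpins by reads of both arms in each library. It was also among the first by reads of the less abundant arm, 3rd in Th17 and 4th in Th0, while its minor arm share was below the median over 178 hairpins, at 0.766% in Th17, where the median was 1.44%, and 0.818% in Th0, where the median was 1.72%.

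A strong preference for the 5p arm was shared with other abundant hairpins. Of 55 hairpins with at least 10000 reads in each library, 19 held over 99% 5p reads in both, and 8 held over 99% 3p reads in both. The hairpins nearest to Mir21a in 5p share were mir-30b, with 99.01% in Th17 and 99.27% in Th0, mir-150, with 99.52% in Th17 and 99.23% in Th0, mir-15a, with 99.15% in Th17 and 98.86% in Th0, and mir-155, with 99.21% in Th17 and 99.61% in Th0. Their arm ratios had larger differences between the libraries than that of Mir21a, although the interval of mir-15a overlapped that of Mir21a. On the log2 scale the 3p to 5p ratio of mir-155 was 1.03 higher in Th17 (interval 0.89 to 1.17) and that of mir-150 was -0.70 (-0.85 to -0.54). For mir-30b the value was 0.44 (0.15 to 0.73) and for mir-15a -0.42 (-0.75 to -0.091).

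**Figure D4:**
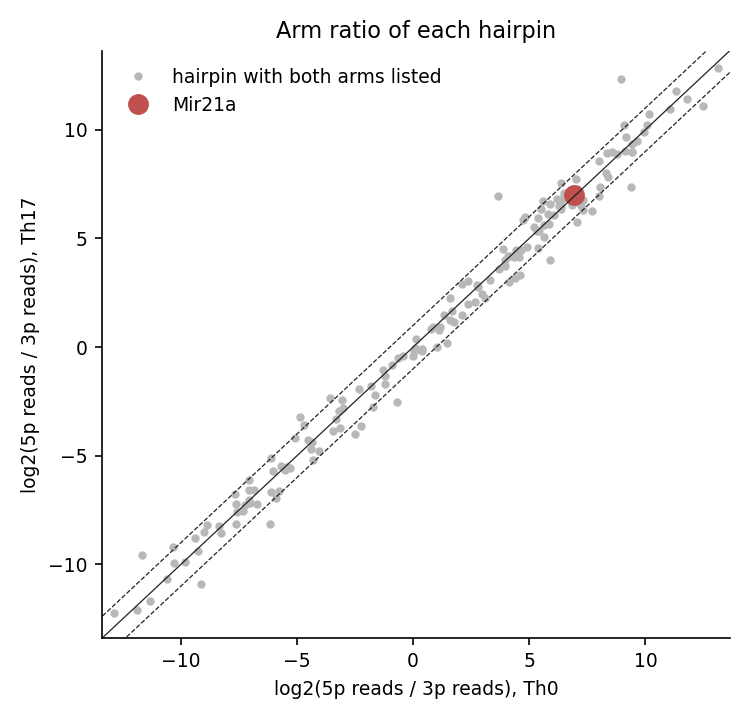
Log2 of 5p over 3p reads in Th17 (vertical) against Th0 (horizontal) for 167 hairpins with both arms listed. The solid line marks equal ratios and the dashed lines a 2-fold difference. Mir21a lies next to the solid line, 0.097 above it on the log2 scale.

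The next question was how miR-21a-5p compares with miRNAs that share its reported regulation. There was no library of resting cells, so no ratio here contrasts activated with resting cells. Of 16 miRNAs reported as induced by T cell activation, 2 were higher in Th17 by 2-fold or more and 6 lower by 2-fold or more, and miR-21a-5p was among the remaining 8. The background over the 298 miRNAs was 6.71% higher and 13.1% lower. The list median was -0.44 on the log2 scale, against -0.080 for all 298. The largest differences were in miRNAs that can come from the Mir17 cluster. Their log2 ratios were -2.69 for miR-19a-3p, -2.56 for miR-19b-3p, -1.48 for miR-18a-5p and -1.41 for miR-20a-5p. miR-19b-3p is shared by the hairpins mir-19b-1 and mir-19b-2, which its reads do not tell apart. Scaled to the sum of listed reads miR-21a-5p had the smallest absolute ratio of the list, whereas 1 member was smaller with median-of-ratios factors and 1 without the 10 most abundant in the total. It held 55.4% of the list's CPM in Th17 and 50.3% in Th0, and the other members together came to 120975 CPM in Th17 and 151346 CPM in Th0. The direction of that sum came from miR-92a-3p, without which, as checked after the values were seen, the others summed to 71934 CPM in Th17 and 53715 CPM in Th0. The largest difference within this second sum was that of miR-155-5p, at 31749 CPM in Th17 and 14346 CPM in Th0. Member by member, 11 of the 16 were lower in Th17 and 5 higher, with intervals that exclude a ratio of 1.

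IL-6 was added to Th17 cells and not to Th0 cells, and a further list holds miRNAs reported as targets of IL-6 or STAT3 signalling. Of its 13 members, 1 was higher in Th17 by 2-fold or more, 6 were lower by 2-fold or more and 6 were in between. The background over the 298 miRNAs was again 6.71% higher and 13.1% lower. The median log2 ratio of the list was -0.99. The higher member was miR-155-5p, a miRNA that Th17 cells need for their full response in mice. It had 31749 CPM in Th17 and 14346 CPM in Th0, 2.21-fold higher (2.20 to 2.23). The lower members included miR-19a-3p, miR-19b-3p, miR-18a-5p and miR-146b-5p, a paralog of the NF-κB brake miR-146a. miR-146b-5p was at 169 CPM in Th17 and 675 CPM in Th0. miR-146a-5p, on the activation list and not on this one, went the other way, at 5161 CPM in Th17 and 2552 CPM in Th0. miR-17-5p, miR-18a-5p, miR-19a-3p, miR-19b-3p and miR-20a-5p, all among the lower members, can come from the primary transcript of the Mir17 cluster. So can miR-92a-3p, whose log2 ratio of -0.99 is the list median. These members are therefore not independent of each other. miR-21a-5p stood 5th from the highest ratio of the 13.

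Of 15 miRNAs reported to promote Th17 cells, 13 reached a mean of 10 CPM and the other two were in neither library. Of the 13, 1 was higher by 2-fold or more, 2 were lower by 2-fold or more and 10 were in between. These counts are close to the background over the 298 miRNAs, 6.71% higher and 13.1% lower. The median log2 ratio of the 13 was 0.079. miR-155-5p was the highest, let-7e-5p was at 0.81, and miR-17-5p and miR-19b-3p were the lowest at -1.15 and -2.56. miR-21a-5p was 8th from the highest. It held 67.9% of the CPM of these miRNAs in Th17 and 74.3% in Th0, and the rest summed to 71073 CPM in Th17 and 52853 CPM in Th0. Without miR-155-5p, left out after the values were seen, the rest summed to 39324 CPM in Th17 and 38506 CPM in Th0. Members recur across the lists, so the lists are not independent either.

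**Figure D5:**
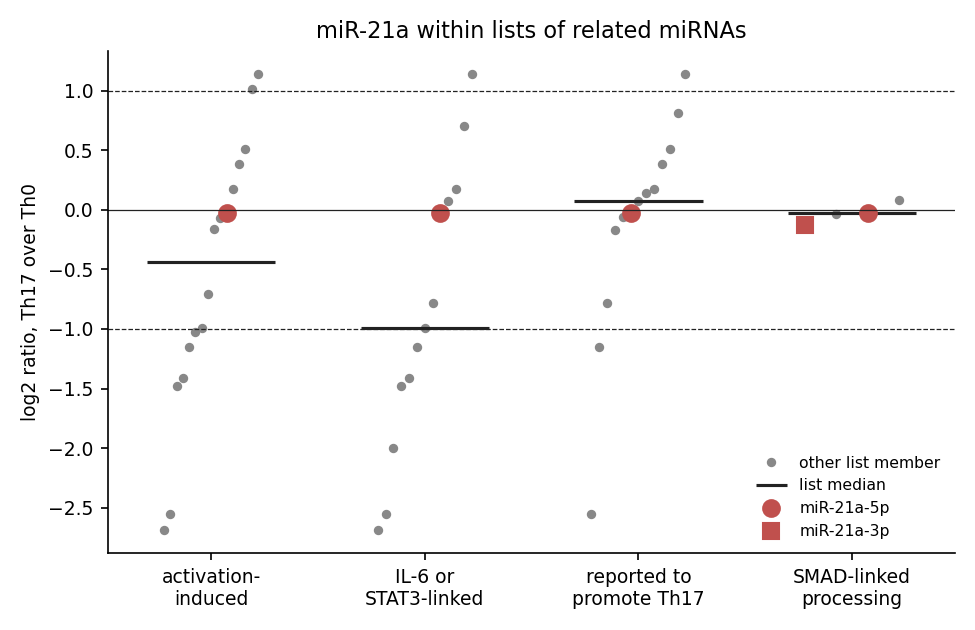
Log2 ratio of Th17 over Th0 for the members, with a mean of at least 10 CPM, of 4 lists of miRNAs that include miR-21a-5p. Bars mark list medians and dashed lines 2-fold. miR-21a-5p (circle) is at -0.026 in each list, above the median of the activation-induced (-0.44) and STAT3-linked (-0.99) lists and below that of the Th17-promoting list (0.079).

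TGF-β, also added to Th17 cells alone, has been reported in human smooth muscle cells to raise the processing of miR-21 and miR-199a through SMAD proteins, which recognise the bases CAGAC in the stem. The motif stands in capitals in the mature sequences that hold it and bear on the comparison.
miR-21a-5p: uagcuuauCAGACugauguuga
miR-199a-5p: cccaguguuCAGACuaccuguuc
miR-214-3p: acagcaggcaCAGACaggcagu
miR-3968: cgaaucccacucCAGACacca
CAGAC was searched in the mature sequences as given and overlaps none of the seeds shown. The complement and the rest of each stem were not searched, so the counts below do not show which stems hold the motif. In miR-21a-5p CAGAC covers bases 9 to 13. It occurs in 28 of 1679 mature miRNAs of the table (1.67%) and in 16 of the 935 listed miRNAs with a sequence (1.71%). Among those, 252 had a mean of at least 10 CPM and 2 of these held it, miR-21a-5p and miR-3968. miR-3968 was at 174 CPM in Th17 and 254 CPM in Th0, 1.46-fold lower in Th17. miR-21a-3p, cut from the same stem as miR-21a-5p, does not hold these letters.

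The list of miRNAs with SMAD-linked processing had 8 members, all of them listed, and 4 reached a mean of 10 CPM. None of the 4 was 2-fold apart, where 19.8% of the 298 miRNAs were. The 4 were both arms of miR-21a, miR-148b-3p, and miR-421-3p at 0.087, which moved below 0 without the 10 most abundant in the total. The other members were at far lower levels and are named after their values were seen. miR-199a-5p had 93 reads in Th17 and 4 in Th0, 16.2-fold higher in CPM (6.13 to 60.8). miR-199a-3p had 142 reads in Th17 and 10 in Th0, 9.91-fold higher (5.23 to 21.1). miR-214-3p had 19 reads in Th17 and 1 in Th0 (ratio 13.3, interval 2.11 to 551), and miR-300-3p had 11 reads in Th17 and 44 in Th0. The miR-199a and miR-214 arms are also markers of stromal cells. Their part in any difference was not tested.

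Other cells can carry miR-21, so markers were set beside it. All 5 miRNAs of the T cell list were high, with a sum of 104968 CPM in Th17 and 87957 CPM in Th0. Most of it was miR-142a-5p, at 65898 CPM in Th17 and 58347 CPM in Th0, whose hairpin is expressed across blood lineages. Against the sum, miR-342-3p (3536 CPM in Th17, 6349 CPM in Th0) and miR-142a-3p (1153 CPM in Th17, 2194 CPM in Th0) were lower in Th17. The 2 arms of the myeloid miR-223 summed to 6.93 CPM in Th17 and 3.35 CPM in Th0, and miR-223-5p was at 0 in Th0. The 2 erythroid miRNAs summed to 2.17 CPM in Th17 and 0.718 CPM in Th0, and miR-144-3p was at 0 in Th0. The 5 epithelial markers summed to 208 CPM in Th17, with single values from 12.4 to 100.4 CPM, and to 387 CPM in Th0, from 23.1 to 141 CPM. The 7 stromal and endothelial markers summed to 113 CPM in Th17 and 194 CPM in Th0, and all were listed in both. Split by cell type after these values were seen, the 2 endothelial miR-126a arms summed to 85.9 CPM in Th17 and 191 CPM in Th0, while the 5 stromal markers summed to 27.4 CPM in Th17 and 2.63 CPM in Th0. miR-21a-5p exceeded the sum of the epithelial markers 724-fold in Th17 and 396-fold in Th0. Reads of different miRNAs do not show how many miR-21a reads came from such cells, which was not tested. In RNA from whole cultures a change in the number of cells that hold a miRNA and a change in its amount per cell cannot be told apart.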

How the data were processed

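Each library had a table of mature miRNAs. The deposited counts are whole reads per miRNA, per the file headers. The TPM column, also deposited, is those counts over a larger library total (13070648 reads in Th17 and 9072995 in Th0). The submitters' processing notes name the build mm10. The sources used do not state the tools for trimming and alignment, the annotation release or the way the triplicates of the study's design were combined. The reads were divided by the sum of listed reads (11975371 in Th17, 8358010 in Th0), with a missing miRNA taken as 0. Log2 ratios of Th17 over Th0 used 0.5 CPM added to both values. Intervals of ratios (conditional on the sum of both counts) and shares are exact 95% Clopper-Pearson intervals. That of the Mir21a arm ratio is the conditional interval of the odds ratio, and those of other hairpins use a normal approximation on the log scale. Reads amplified by PCR and not tagged by molecule are not independent, so intervals and floors (3 counts) cover counting error only. Calls needed a mean of 10 CPM, 2-fold and an interval excluding 1. TMM factors, 0.997 for Th17 and 1.003 for Th0, came from edgeR 4.0.16 in R 4.3.3. Hairpins sharing a mature miRNA were joined. Statistics used Python 3.11.15 and scipy 1.17.1, and were tested on simulated data. Members and lists were chosen with earlier results of these data known. The miRNAs named are the arms and seed sharers, the most abundant, the 4 nearest in ratio or arm share, up to 4 per list with the largest absolute ratio and holders of CAGAC at 100 CPM or more. Others are named after their values were seen.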

Additional observations from a re-analysis of the deposited data

How the results depend on the processing

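No paired analysis was possible because each group has 1 library. The log2 ratio of miR-21a-5p was -0.026 as reported, -0.017 with TMM, -0.031 without miR-21a-5p in the total, -0.034 with the totals implied by the deposited TPM, -0.156 without the 10 most abundant miRNAs in the total and 0.052 with median-of-ratios factors. That of miR-21a-3p was -0.12 as reported, -0.25 without the 10 most abundant and -0.044 with median-of-ratios factors, and the remaining scalings left it within its interval. miR-21b had 0 reads in Th17 and 1 in Th0, so adding them to the 5p arm could hardly move any value. The miR-21a-5p ratio, the 5p share and the arm ratio stayed within their intervals. The count of miRNAs past 2-fold was 59 of 298 as reported and 92 of 393 without the 10 most abundant in the total. It was 118 of 542 at a minimum of 1 CPM, 28 of 158 at 100 CPM and 153 of 1125 with no minimum. At 1.5-fold it was 125 of 298. Of 542 miRNAs tested at 1 CPM, 51 were higher and 67 lower in Th17, and at 100 CPM 13 were higher and 15 lower. Hairpins whose arm ratio differed at least 2-fold numbered 31 of 167 as reported, 48 of 214 at a minimum of 20 reads and 14 of 115 at 1000 reads. At 1.5-fold the same 298 miRNAs were tested, and the other settings listed tested other numbers of miRNAs or hairpins. The rank of miR-21a-5p was 1 in both libraries by reads and by TPM. Counting error left the log2 ratio of miR-21a-5p an interval of -0.029 to -0.023, narrower than its range over scalings, and the spread between cultures could not be measured.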

Other observations

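The order of the less abundant arms around miR-21a-3p differed between the libraries. These hairpins were named after their values were seen. By reads of the minor arm, mir-423, let-7d, mir-21a and mir-142a were the first 4 in both libraries, and miR-21a-3p stood ahead of miR-142a-3p in Th17 and behind it in Th0. For mir-423 the minor arm was 5p in Th17 (25579 reads) and 3p in Th0 (24282 reads), so its place rests on different arms. miR-142a-3p, from a hairpin expressed across blood lineages, was at 1153 CPM in Th17 and 2194 CPM in Th0, a log2 ratio of -0.93, while its partner miR-142a-5p was at 0.18. The 3p to 5p ratio of mir-142a was therefore lower in Th17, with a log2 difference of -1.10 (interval -1.14 to -1.07). The same value was -0.15 for let-7d (-0.19 to -0.11) and 0.20 for mir-423 (0.16 to 0.23), next to -0.097 for Mir21a. No test of these differences was possible with 1 library per group.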
